A study of Homo sapiens with 8 samples.

Results

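The nuclear genes for the subunits of the mitochondrial respiratory chain were followed by RNA sequencing of KYSE70, a long-established line grown from a human squamous cell carcinoma of the esophagus. Members were taken by gene symbol: the NDUF subunits of complex I, the 4 SDH genes of complex II, CYC1 and the UQCR genes of complex III, 10 COX genes of complex IV and the ATP5F1, ATP5M and ATP5P genes of complex V. Names ending in P and digits, the usual form of a pseudogene name, were dropped, which removed 1 gene (UQCRBP1). This left 80 of the 28281 genes in the table, of which 37 belonged to complex I, 4 to complex II, 10 to complex III, 11 to complex IV and 18 to complex V. NDUFA4 was counted with complex IV, where its protein is now placed. The 13 subunits encoded in the mitochondrial genome were not analysed here.

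The 3 groups were cells given 20 nM mitoxantrone (n = 3), cells given 10 µM pyrimethamine (n = 2) and untreated cells (n = 3), with 72 h of treatment. The series title names both compounds as inhibitors of NRF2, the antioxidant transcription factor encoded by NFE2L2. Mitoxantrone is a topoisomerase II poison and pyrimethamine an antifolate. Since the labels do not state whether replicates are independent cultures, a p-value here measures no more than the spread among these samples, and that spread may be technical.

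The respiratory chain sits in the inner mitochondrial membrane. Complex I takes electrons from NADH and complex II from succinate, complex III passes them by way of cytochrome c to complex IV, and complex IV reduces oxygen. The proton gradient built by complexes I, III and IV drives ATP synthesis by complex V. In mammals many of the nuclear subunit genes have binding sites for nuclear respiratory factor 1, the protein of the NRF1 gene, and for GABPA, an ETS-family factor that was itself once abbreviated NRF2 and is unrelated to NFE2L2.

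Values are normalised read counts, that is reads divided by the size factor of the library. The libraries held 17555689 to 24774358 reads each. Of 80 members, 78 had a mean of at least 10 over the 8 libraries and were tested beside the other genes, 15350 in all. The others were ATP5F1E, the epsilon subunit of complex V, with 3, 5 and 8 reads in the mitoxantrone libraries, 1 and 0 in the pyrimethamine libraries and 1, 0 and 1 in the untreated libraries, and ATP5MGL, a gene similar to ATP5MG, with 4, 2 and 4 reads with mitoxantrone, 0 and 1 with pyrimethamine and 0, 1 and 4 in untreated cells. No fold is given for either. The tested ATP5F1 genes had untreated means of 3242 (ATP5F1D) to 34365 (ATP5F1B). Whether reads of ATP5F1E were lost in the counting was not tested, and how reads matching more than 1 gene were counted is not given. The squamous keratin KRT5 ranged from 46713 to 84458 over all libraries. Of 6 squamous markers 2, TP63 and DSG3, fell with mitoxantrone, and the summed level of the list was 72596 to 74402 in mitoxantrone libraries, 80124 to 86386 in pyrimethamine libraries and 110934 to 118017 in untreated libraries. The sum of 6 fibroblast markers was 450 to 602 with mitoxantrone, 1845 to 2063 with pyrimethamine and 1101 to 1210 in untreated cells. That of 4 leukocyte markers was 108 to 145 with mitoxantrone, 104 to 132 with pyrimethamine and 54.7 to 64.3 in untreated cells, nearly all of it CD68, the only one tested, which rose with mitoxantrone by 0.97 on the log2 scale, while the T cell gene CD3E was at 0 in 7 libraries. That of 4 endothelium markers was 83.7 to 194 with mitoxantrone, 179.99 to 346 with pyrimethamine and 69.8 to 94.4 in untreated cells. The part of these sums in the results was not tested. In bulk libraries, fewer cells with a transcript and less of it per cell cannot be told apart.

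The pyrimethamine libraries stood apart from each other. Subunit genes were higher in replicate 2 than in replicate 1 by a median ratio of 4.48, with a range of 0.706 to 6.60, against a median ratio of 1.04 over all tested genes. Within the mitoxantrone and untreated groups the median SD of a subunit gene was 8.58% and 4.24% of its mean. Results that rest on the pyrimethamine libraries are therefore given for each of them.

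**Figure D1:**
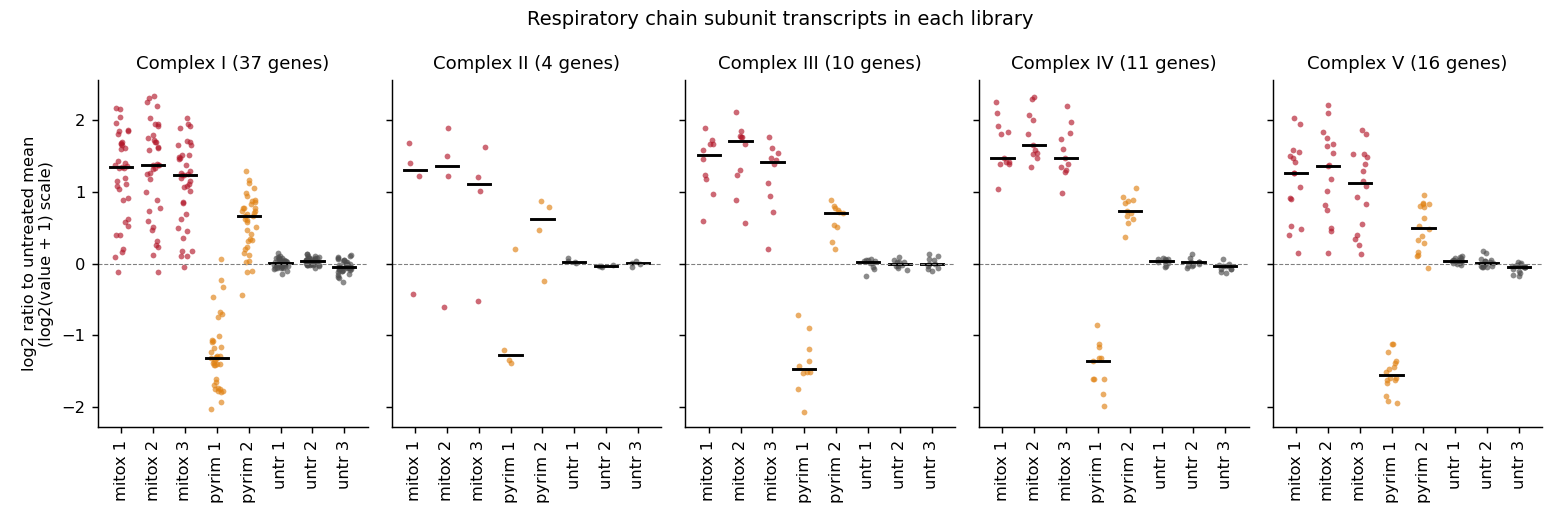
Each point is a tested subunit gene, as the log2 ratio of its normalised read count to the mean of the untreated libraries (on log2(value + 1)), in the mitoxantrone (mitox), pyrimethamine (pyrim) and untreated (untr) libraries, by complex. Black bars are medians. In every complex the mitoxantrone medians lay above the untreated ones, pyrimethamine replicate 1 lay below them and replicate 2 between the untreated and mitoxantrone medians.

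The first comparison asked how mitoxantrone changed the subunit genes relative to untreated cells. Most of them were higher, in all 5 complexes. The 80 genes together took 3.31%, 3.45% and 3.17% of reads in the mitoxantrone libraries, against 1.80%, 1.78% and 1.74% in the untreated libraries. Of the 78 tested genes, 52 rose and 1, SDHA, fell (limma, Benjamini-Hochberg adjusted p under 0.05), where 26.8% of all tested genes rose and 28.1% fell (54.9% in either direction). The median log2 fold change of the subunit genes was 1.40, a fold of 2.64, with a range of -0.52 to 2.26, while that of all tested genes was 0.00. By complex, the median was 1.31 in complex I (23 of 37 rose), 1.26 in complex II (3 of 4 rose and 1 fell), 1.55 in complex III (8 of 10), 1.49 in complex IV (10 of 11) and 1.25 in complex V (8 of 16). Every mitoxantrone library was above every untreated library for 75 of 78 genes, as it was for 40.4% of all tested genes. NDUFV3 and SDHA were among the exceptions, and every mitoxantrone library was below every untreated library for 2 genes, SDHA among them (39.5% of all tested genes).

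The counts depend on which libraries set the spread. The test used 1 estimate of spread per gene over all 8 libraries, and the distance between the pyrimethamine libraries entered it: the median standard error of the subunit genes was 0.46 log2 units, against 0.08 when only the mitoxantrone and untreated libraries were fitted. In that 6-library fit 74 genes rose, SDHA fell and 3 were not called, ATP5F1D and NDUFV3 among them, where 38.9% of all tested genes rose and 38.2% fell. Leaving out pyrimethamine replicate 1 or replicate 2 gave the same counts, 74 and 1. Leaving out mitoxantrone replicate 1, 2 or 3 left 15, 13 and 23 genes called higher, against 17.5%, 17.1% and 20.2% of all tested genes. Leaving out untreated replicate 1, 2 or 3 left 18, 17 and 13, against 18.5%, 17.8% and 18.0% of all tested genes, with no member called lower in any of these 6 fits. With 13 to 18 of 78 genes, the share of members called was near that of all tested genes, while the median log2 fold change of the members stayed between 1.33 and 1.47. A correction for transcript length and GC content left 25 higher and 5 lower with a median of 0.36, where 21.0% of all tested genes were higher and 30.3% lower. Quantile normalization left 17 higher and 1 lower, where 23.3% of all tested genes were higher, so that the members' share of calls was no longer above that of all genes. Over these and the other alternatives, 23 in all, 11 genes were called higher every time: ATP5PO, COX6A1, COX6C, COX7A2, NDUFA11, NDUFA2, NDUFB2, NDUFB3, NDUFC2, UQCR11 and UQCRB. Of these, COX6A1, NDUFA2 and NDUFC2 were named after their values were seen.

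**Figure D2:**
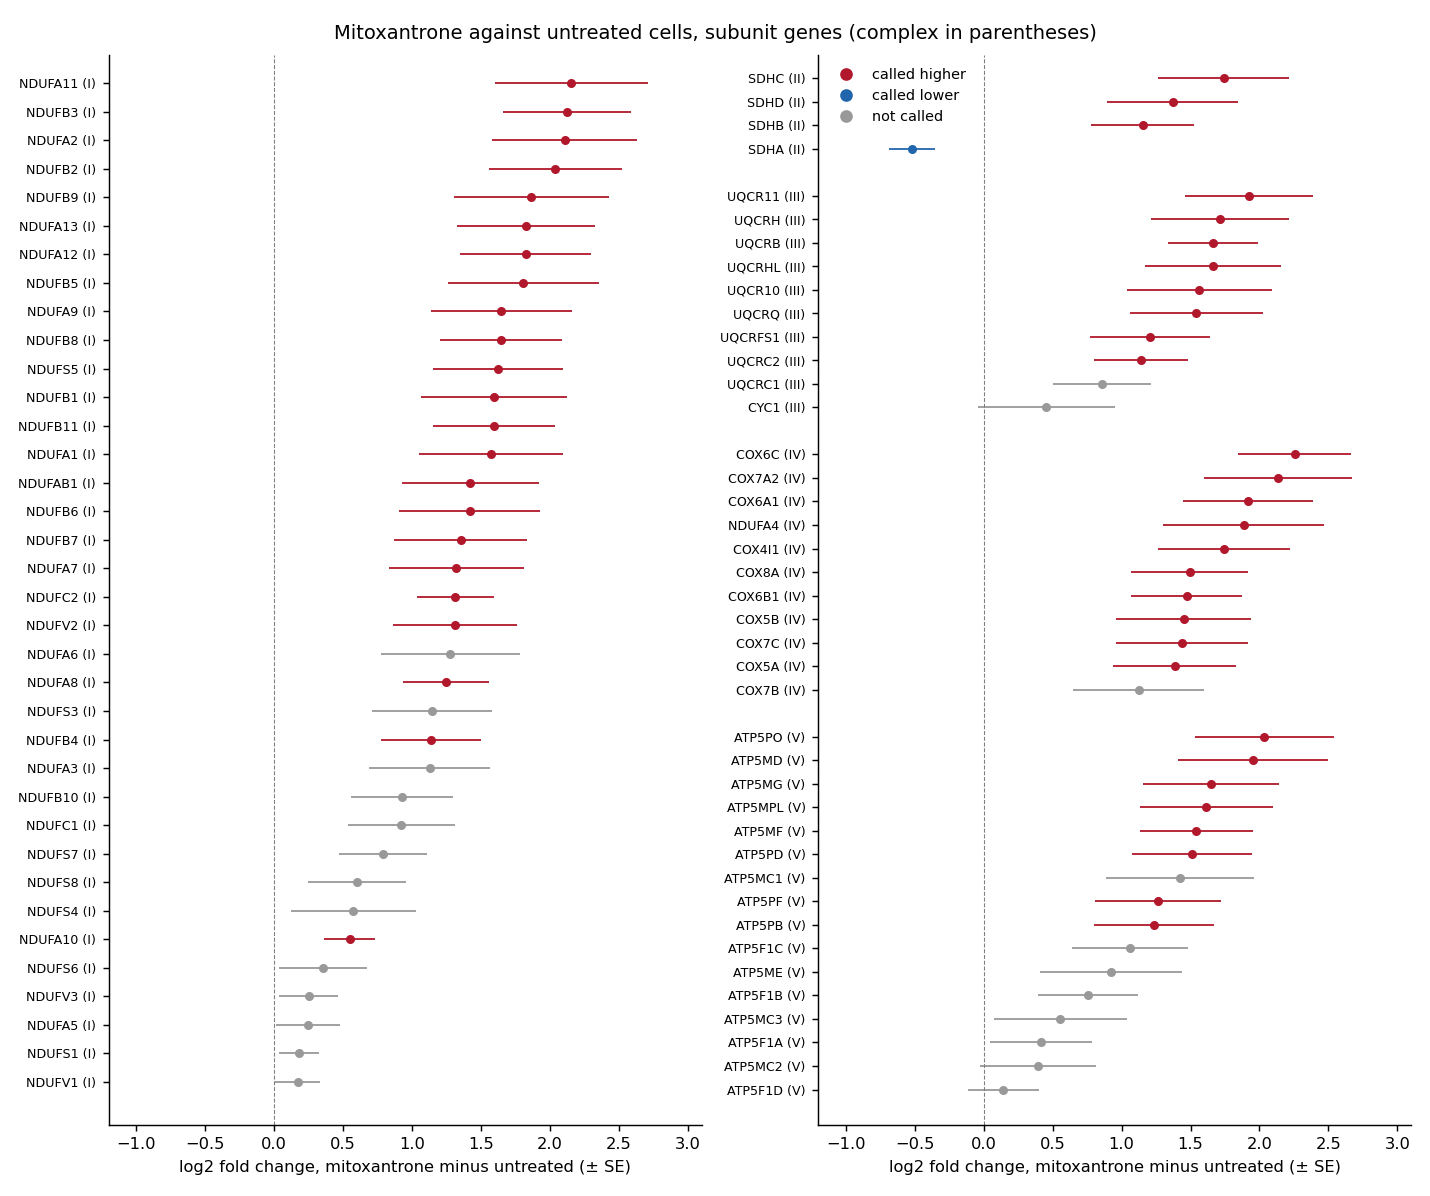
Log2 fold change (mitoxantrone minus untreated) with its standard error for the tested subunit genes reported one by one, ordered within complexes. Red points were called higher, the blue point (SDHA) lower and grey points were not called. The values run from -0.52 for SDHA to 2.26 for COX6C.

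In complex I, 22 of 30 genes of accessory subunits rose, with a median log2 fold change of 1.42. Of the 7 core genes, whose proteins carry out electron transfer, 1 rose, NDUFV2, and the median was 0.60. The difference between these sets was not tested. Their median coding lengths were 385.5 bases for the accessory genes and 792 bases for the core genes. In the 6-library fit 6 of the 7 core genes were called higher.

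NDUFA11, a membrane-arm accessory subunit, had the highest log2 fold change of complex I. Its normalised read counts were 16962, 17994 and 15347 in the mitoxantrone libraries, 1081 and 6806 in the pyrimethamine libraries and 3609, 3917 and 3744 in the untreated libraries. The mitoxantrone libraries were all far above the others, and the untreated libraries lay between the pyrimethamine ones. The mitoxantrone change was 2.16 ± 0.56 (SE; limma, adjusted p = 0.0131), a fold of 4.46.

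NDUFB3, another accessory subunit of the membrane arm, had 4127, 4628 and 3454 with mitoxantrone, 408 and 1833 with pyrimethamine and 948, 960 and 872 in untreated cells. The groups were ordered as for NDUFA11, with no overlap between mitoxantrone and untreated libraries. Its log2 fold change with mitoxantrone was 2.12 ± 0.46 (limma, adjusted p = 0.00664). NDUFB2 rose by 2.04 ± 0.48 (adjusted p = 0.00918). It is uncertain, because 49.0% of its exonic bases lie opposite genes of the other strand, among them NDUFB2-AS1, and the strand setting of the counting is not given. NDUFB2-AS1 had 4840, 5833 and 4809 in the mitoxantrone libraries and 1287, 1267 and 1046 in the untreated libraries, so both names showed the same order of groups.

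The core subunit NDUFV1, which binds FMN and NADH, showed little difference. NDUFV1 had 2738, 2575 and 2685 with mitoxantrone, 2012 and 2740 with pyrimethamine and 2441, 2380 and 2287 in untreated cells. Its mitoxantrone libraries lay above the untreated ones by a log2 fold change of 0.17 ± 0.16, which did not pass (adjusted p = 0.391). NDUFV2, an iron-sulfur subunit that neighbours NDUFV1 in the NADH-oxidising module, had 10514, 10683 and 9352 with mitoxantrone, 1587 and 6710 with pyrimethamine and 4086, 4036 and 4169 in untreated cells, a log2 fold change of 1.31 ± 0.45 (adjusted p = 0.0361). NDUFV2 is uncertain, since 41.1% of its exonic bases are shared with the gene AP005263.1 on the same strand.

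One gene took a large part of the complex I reads. NDUFB5, an accessory subunit of the membrane arm named here after its values were seen, made up 24.5%, 25.3% and 24.2% of the summed complex I value in the mitoxantrone libraries, 15.9% and 21.0% in the pyrimethamine libraries and 20.3%, 19.3% and 20.0% in the untreated libraries. Sums over complex I therefore weigh this gene heavily, and the medians given here do not.

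Complex II, succinate dehydrogenase, has 4 nuclear-encoded subunits, and they did not move together. SDHA, the flavoprotein that oxidises succinate, had 2357, 2084 and 2200 in the mitoxantrone libraries, 3644 and 2671 in the pyrimethamine libraries and 3174, 3070 and 3264 in the untreated libraries. It was lower with mitoxantrone than in every other library, and its pyrimethamine replicate 1 was the highest of all 8. The log2 fold change with mitoxantrone was -0.52 ± 0.17 (limma, adjusted p = 0.0304), a fold of 0.698.

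The iron-sulfur subunit SDHB had 9184, 9165 and 7961 with mitoxantrone, 1710 and 5462 with pyrimethamine and 4005, 3832 and 3976 in untreated cells, a log2 fold change of 1.15 ± 0.37 with mitoxantrone (adjusted p = 0.0298). The membrane anchor SDHC had 11199, 12959 and 10757 with mitoxantrone, 1361 and 6395 with pyrimethamine and 3546, 3420 and 3447 in untreated cells, a change of 1.74 ± 0.48 (adjusted p = 0.0162). The other anchor, SDHD, had 18983, 20217 and 16550 with mitoxantrone, 2723 and 12336 with pyrimethamine and 7571, 6987 and 6918 in untreated cells, a change of 1.37 ± 0.48 (adjusted p = 0.0383). All 3 were highest with mitoxantrone and lowest in pyrimethamine replicate 1, the opposite order to SDHA. The ratio of SDHB to SDHA reads was 3.90, 4.40 and 3.62 in the mitoxantrone libraries, 0.469 and 2.05 in the pyrimethamine libraries and 1.26, 1.25 and 1.22 in the untreated libraries.

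The direction of SDHA was negative under all 23 alternatives, from -0.98 to -0.46, and the call was kept in 13 and lost in 10, with adjusted p from 2.91e-06 to 0.109. Those that lost it were upper-quartile scaling, no filter on low values, both fits with a replicate block and the 6 fits without a mitoxantrone or untreated replicate. Reads of SDHA can be shared with its pseudogenes. SDHAP1, which had the highest untreated mean of them, had 59.8, 72.3 and 56.3 in the mitoxantrone libraries, 207 and 37.0 in the pyrimethamine libraries and 81.8, 79.0 and 63.2 in the untreated libraries, and none of SDHAP1, SDHAP2 and SDHAP3 was called with mitoxantrone.

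**Figure D3:**
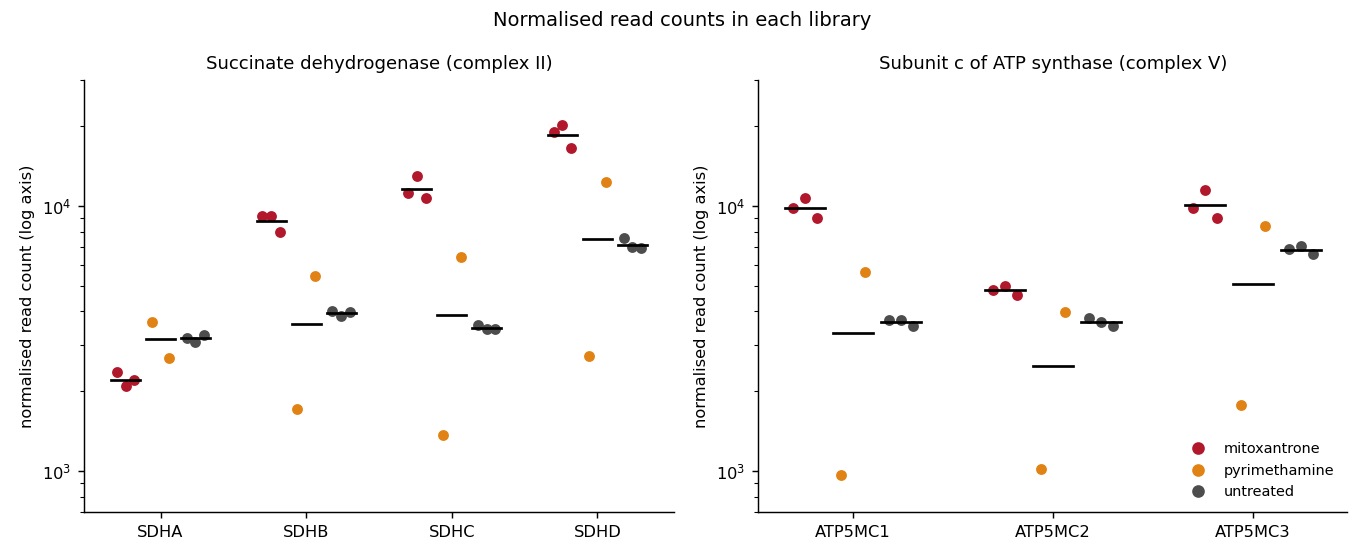
Normalised read counts (log axis) of the 4 succinate dehydrogenase genes and the 3 subunit c genes in each library, with mitoxantrone left, pyrimethamine in the middle and untreated cells right, and a black bar at each group mean. SDHA is lowest with mitoxantrone (2084 to 2357) while SDHB, SDHC and SDHD are highest there.

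Promoter sequence was available in RefSeq for 64 of the 80 members, 2 of them matched by another symbol, as windows from 250 bases before to 50 bases after the start of the gene. The consensus of nuclear respiratory factor 1 in 10 letters, called the NRF1 letters here, was searched on both strands and was in the windows of 16 members (25.0%), against 6.98% of all genes in the RefSeq table. An ETS site as bound by GABPA, CCGGAAG on either strand, was in 21 (32.8% against 12.2%), and the YY1 core AAGATGG in 18 (28.1% against 7.11%). The antioxidant response element TGACNNNGC, the site type of NFE2L2, was in 12 (18.8% against 16.1%) and the GC box GGGCGG in 41 (64.1% against 48.3%). Matches of the GC box shared bases with an ETS match in 1 member window and with a YY1 match in 1, and no other motif pair overlapped. The median log2 fold change with mitoxantrone was 1.31 in members with the NRF1 letters and 1.38 in members without. With and without the letters it was 1.49 and 1.26 for the ETS site, 1.25 and 1.42 for the YY1 core, 1.03 and 1.38 for the antioxidant response element and 1.31 and 1.42 for the GC box. A match of letters is a description and not evidence of binding.

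The bases just upstream of 4 members are shown because SDHA, the gene that fell, holds the same NRF1 letters as members that rose with mitoxantrone. All are from RefSeq on GRCh38.p14, written 5′ to 3′ on the strand of the gene and ending at the base before its start. Capitals mark the NRF1 letters, and in SDHD and UQCR11 also the ETS letters. The SDHA stretch lies at chr5:218140-218319 on the plus strand and holds the NRF1 letters 4 times. That of SDHD lies at chr11:112086753-112086872 on the plus strand. The UQCR11 and NDUFA11 stretches lie at chr19:1605463-1605582 and chr19:5903791-5903910, both on the minus strand.
SDHA: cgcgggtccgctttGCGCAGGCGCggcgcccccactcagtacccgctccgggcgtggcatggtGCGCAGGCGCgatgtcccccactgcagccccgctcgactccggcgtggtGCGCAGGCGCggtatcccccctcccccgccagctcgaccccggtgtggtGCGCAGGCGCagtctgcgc
SDHD: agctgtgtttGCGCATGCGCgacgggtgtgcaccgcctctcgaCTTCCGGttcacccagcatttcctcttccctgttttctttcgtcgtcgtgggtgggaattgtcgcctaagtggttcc
UQCR11: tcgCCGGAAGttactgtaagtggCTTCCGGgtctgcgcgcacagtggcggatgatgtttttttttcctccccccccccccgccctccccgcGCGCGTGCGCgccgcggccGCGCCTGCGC
NDUFA11: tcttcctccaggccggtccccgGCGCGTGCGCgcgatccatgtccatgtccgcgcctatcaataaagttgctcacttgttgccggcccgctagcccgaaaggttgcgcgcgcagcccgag

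In complex III all 6 genes of small subunits rose with mitoxantrone, with log2 fold changes of 1.54 to 1.93 and a median of 1.66. UQCR11 had 9703, 11247 and 8862 in the mitoxantrone libraries, 1008 and 4523 in the pyrimethamine libraries and 2691, 2632 and 2483 in the untreated libraries, a change of 1.93 ± 0.46 with mitoxantrone (limma, adjusted p = 0.0099). UQCRB, a subunit near the ubiquinone site, had 6327, 6781 and 5778 with mitoxantrone, 1209 and 3261 with pyrimethamine and 1880, 1953 and 2127 in untreated cells, a change of 1.66 ± 0.32 (adjusted p = 0.0043). For both genes the mitoxantrone libraries stood above all others without overlap.

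The redox subunits and the large core proteins of complex III were split. CYC1, which encodes cytochrome c1, had 15812, 15506 and 12150 with mitoxantrone, 2504 and 12132 with pyrimethamine and 11015, 10243 and 10246 in untreated cells. Its mitoxantrone libraries were above the untreated ones, but the log2 fold change of 0.46 ± 0.50 did not pass (adjusted p = 0.448). The core protein UQCRC2 rose by 1.14 ± 0.34 (adjusted p = 0.0222), while the value of UQCRC1 was 0.86 ± 0.35 (adjusted p = 0.0681). CYC1 made up 13.4%, 12.3% and 11.6% of the complex III sum in the mitoxantrone libraries and 22.2%, 21.4% and 21.3% in the untreated libraries.

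UQCRH, the hinge protein, and UQCRHL, a nearly identical copy, are uncertain, since the counting could split their reads. UQCRH had 27946, 31809 and 26965 with mitoxantrone, 3082 and 15117 with pyrimethamine and 9108, 8903 and 8381 in untreated cells. UQCRHL had 722, 755 and 608 with mitoxantrone, 80.5 and 405 with pyrimethamine and 194, 223 and 241 in untreated cells. UQCRHL thus held 2.08% to 2.79% of the summed reads of both in every library, and the log2 fold changes with mitoxantrone were 1.71 ± 0.50 for UQCRH and 1.66 ± 0.49 for UQCRHL.

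Complex IV had the highest share of genes called higher. Its catalytic subunits are mitochondrially encoded and were not analysed here, and the 11 nuclear genes encode the surrounding subunits. COX6C had 12100, 12528 and 11736 in the mitoxantrone libraries, 1399 and 5261 in the pyrimethamine libraries and 2455, 2501 and 2661 in the untreated libraries. Its mitoxantrone libraries were close together and far above the rest, and the log2 fold change of 2.26 ± 0.41 was the highest of the 78 genes (limma, adjusted p = 0.00332).

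COX7A2, the widely expressed form of subunit VIIa, had 11267, 13107 and 10327 with mitoxantrone, 857 and 5004 with pyrimethamine and 2693, 2667 and 2494 in untreated cells. The log2 fold change with mitoxantrone was 2.14 ± 0.54 (adjusted p = 0.0116). The lowest values of the complex belonged to COX5A, the widely expressed subunit Va, at 1.38 ± 0.45 (adjusted p = 0.0296), and COX7B, subunit VIIb, at 1.12 ± 0.48, which did not pass (adjusted p = 0.0736). COX7B had 9416, 11601 and 9033 with mitoxantrone, 1295 and 5935 with pyrimethamine and 4487, 5040 and 4218 in untreated cells, so it too had no overlap between mitoxantrone and untreated libraries.

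In complex V the genes of the peripheral stalk and most of those of the small membrane subunits rose, and the tested ATP5F1 genes and those of the c ring were not called. All 4 peripheral stalk genes rose, with a median log2 fold change of 1.39, and 4 of 5 tested small membrane genes, with a median of 1.61. None of the 4 tested ATP5F1 genes rose or fell, with a median of 0.59, and none of the 3 c-ring genes, with a median of 0.56. In the 6-library fit all of these but ATP5F1D were called higher. At an unadjusted p under 0.05, and over all complexes, 63 of 78 genes passed with limma and 63 with edgeR. Of all 15350 tested genes, 9549 passed with limma and 9543 with edgeR.

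ATP5PO, the stalk subunit also called OSCP, had 24580, 27954 and 21888 in the mitoxantrone libraries, 2106 and 10531 in the pyrimethamine libraries and 6258, 5908 and 5911 in the untreated libraries. The mitoxantrone change was 2.03 ± 0.50 (limma, adjusted p = 0.0109). It is uncertain, since 70.3% of its exonic bases are shared with the gene AP000311.1 on the same strand. ATP5PO is 1 of 3 members with over 50% of exonic bases shared on the same strand, and the others were also called higher. ATP5MD, a small subunit also known as DAPIT, had 13943, 15459 and 12572 with mitoxantrone, 1164 and 6982 with pyrimethamine and 3561, 3990 and 3282 in untreated cells, a change of 1.95 ± 0.55 (adjusted p = 0.0176).

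ATP5F1D, the delta subunit at the foot of the rotor, had 3587, 3586 and 3568 with mitoxantrone, 1483 and 3110 with pyrimethamine and 3258, 3337 and 3131 in untreated cells. Both pyrimethamine libraries were below the untreated ones and the mitoxantrone libraries above them, by a log2 fold change of 0.14 ± 0.26 that did not pass (adjusted p = 0.644).

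Subunit c, of which the rotor ring is built, is encoded by 3 genes whose mature proteins are identical. ATP5MC1 had 9793, 10682 and 8987 in the mitoxantrone libraries, 964 and 5659 in the pyrimethamine libraries and 3714, 3724 and 3528 in the untreated libraries. ATP5MC2 had 4811, 4986 and 4614 with mitoxantrone, 1016 and 3969 with pyrimethamine and 3782, 3642 and 3521 in untreated cells. ATP5MC3 had 9829, 11458 and 9033 with mitoxantrone, 1778 and 8391 with pyrimethamine and 6891, 7045 and 6594 in untreated cells. For each of the 3 genes the mitoxantrone libraries lay above the untreated ones without overlap. The log2 fold changes were 1.42 ± 0.54 for ATP5MC1 (limma, adjusted p = 0.0511), 0.40 ± 0.42 for ATP5MC2 (0.433) and 0.56 ± 0.48 for ATP5MC3 (0.342). ATP5MC1 made up 40.1%, 39.4% and 39.7% of the sum of the 3 genes in the mitoxantrone libraries, 25.6% and 31.4% in the pyrimethamine libraries and 25.8%, 25.8% and 25.9% in the untreated libraries.

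Length moved with these results. The median coding length of the tested members was 417 bases, against 1398 bases over all tested genes with an annotated coding length. Across genes, which are not independent replicates, the rank correlation of coding length with the log2 fold change with mitoxantrone was -0.46 over the 78 members and -0.50 over all 12801 tested genes with a coding length. Members under 500 coding bases (49 genes) had a median log2 fold change of 1.51, against 1.14 for all tested genes of that length. From 500 to under 1000 bases the medians were 1.21 for 19 members and 0.52 for all genes, and from 1000 to under 1500 bases 0.70 for 6 members and 0.05 for all genes. At 1500 bases or more the 4 members, SDHA, NDUFS1, ATP5F1A and ATP5F1B, had a median of 0.30 and all genes of -0.72. The subunit medians were above those of all genes in each of the 4 length classes. The last 2 classes hold few members.

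**Figure D4:**
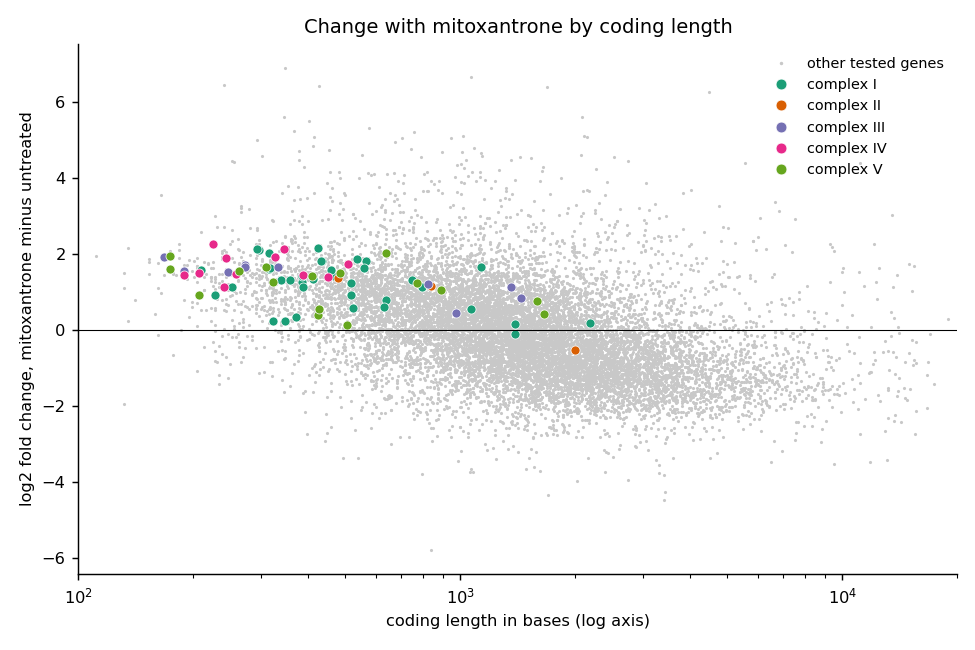
Log2 fold change (mitoxantrone minus untreated) against coding length in bases (log axis) for tested genes with an annotated coding length, with the subunit genes coloured by complex and other genes grey. Both decline with length, and most subunit genes are short and lie above 0.

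The second comparison asked how pyrimethamine changed the subunit genes relative to untreated cells. Its libraries differed in opposite directions. The median log2 ratio of the 78 genes to the untreated mean was -1.39 in replicate 1 and 0.67 in replicate 2. The fitted median was -0.37, against -0.08 over all tested genes. It was -0.02 with edgeR, -0.04 with DESeq2, -0.06 with cyclic loess normalization and -0.30 with quantile normalization, so its size depended on the fit. Replicate 1 was below every untreated library for 76 of 78 genes (44.9% of all tested genes), with NDUFV3 and SDHA as the exceptions. Replicate 2 was above every untreated library for 71 of 78 (44.3% of all tested genes). Both held for 71 genes, against 23.2% of all tested genes. Short genes in general also differed in these directions. All tested genes under 500 coding bases had medians of -0.89 in replicate 1 and 0.56 in replicate 2. Members of that length had -1.42 and 0.78. The rank correlation of coding length with the ratio was 0.47 and -0.46 over all 12801 genes with a coding length. It was 0.25 and -0.47 over the 78 members. The part of length was not tested.

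Of the 78 genes, 0 were called higher or lower with pyrimethamine by limma, where 3.6% of all tested genes were called, 2.29% higher and 1.31% lower. No member passed at an unadjusted p under 0.05 either, where 2971 of all 15350 tested genes did. The count models edgeR and DESeq2 also called 0 members. Of all genes tested by them, 3.15% and 2.84% were higher and 1.22% and 1.80% lower. Without replicate 1, 62 genes were called higher, and without replicate 2, 75 were called lower (24.6% of all tested genes higher and 29.6% lower in these fits), so the direction rests on which library is used. A correction for transcript length and GC content left 3 called lower, NDUFB4, NDUFS4 and NDUFS6, and 0 higher, where 6.38% of all tested genes were lower.

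By complex the medians in replicate 1 were -1.32 for complex I, -1.28 for complex II, -1.47 for complex III, -1.36 for complex IV and -1.56 for complex V. In replicate 2 they were 0.67, 0.63, 0.71, 0.73 and 0.50 in the same order. The subunit genes took 0.977% of reads in replicate 1 and 2.52% in replicate 2.

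The lowest fitted value of complex I was that of NDUFS4, an accessory subunit of the peripheral arm. It had 218 and 974 in the pyrimethamine libraries and 907, 927 and 857 in the untreated libraries, a log2 fold change of -0.96 ± 0.51 (limma, adjusted p = 0.352). NDUFS6, an accessory subunit of the same arm, had 1321 and 3525 with pyrimethamine and 3288, 3739 and 3359 in untreated cells, a change of -0.68 ± 0.36 (adjusted p = 0.348). For neither gene did the libraries of the groups lie apart, and both were called lower after the correction for length and GC content. Both pyrimethamine libraries lay below all untreated libraries for 3 genes, NDUFA5, NDUFS1 and ATP5F1D (16.9% of all tested genes), and above all untreated libraries for 0 (15.8%).

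The third comparison set mitoxantrone against pyrimethamine, which differ in compound and in dose. By limma 64 of 78 genes were higher with mitoxantrone and 0 lower, where 21.2% of all tested genes were higher and 19.9% lower (41.0% in either direction), and the median log2 fold change was 1.76. Every mitoxantrone library was above both pyrimethamine libraries for 74 genes (32.9% of all tested genes). NDUFV1, SDHA and ATP5ME were among the exceptions, and every mitoxantrone library was below both pyrimethamine libraries for SDHA alone (30.4% of all tested genes). These calls depend on the pooled spread. With the mitoxantrone and pyrimethamine libraries alone, 0 of all 15350 tested genes were called. The members' median of 1.76 could not change in that fit, since each change is a difference of group means. It was 1.41 with edgeR, 1.47 with DESeq2 and 1.23 with quantile normalization. With total-read scaling it was 1.08, with cyclic loess normalization 1.02 and with the length and GC correction 0.81. Of the members, 0 to 14 were called higher when any mitoxantrone or untreated replicate was left out: 0, 0 and 8 without mitoxantrone replicates 1, 2 and 3, and 14, 11 and 11 without untreated replicates 1, 2 and 3. Of all tested genes, 0%, 0.013% and 6.36% were called higher without the same mitoxantrone replicates, and 8.52%, 7.26% and 7.32% without the untreated ones.

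Read across all 8 libraries, 69 of 78 genes had the same order: pyrimethamine replicate 1 lowest, then the untreated libraries, then pyrimethamine replicate 2, then the mitoxantrone libraries. This order was found in 17.1% of all tested genes. The 9 exceptions included NDUFA5, NDUFS1, NDUFS6, NDUFV1, NDUFV3, SDHA, ATP5F1D and ATP5ME. All 11 genes of complex IV and all 10 of complex III followed it.

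Genes that act with the subunits were read from lists chosen by function. Assembly factors put the complexes together but are not part of them. With mitoxantrone 7 of 17 rose and 1 fell for complex I, and 12 of 24 rose and 1 fell for complex IV. For complex II 3 of 4 rose, for complex III 0 of 6 were called and for complex V 3 of 5 rose. The background is that given above, 26.8% higher and 28.1% lower. The median coding lengths were 855, 360, 637.5, 336 and 780 bases for the factors of complexes I to V. Of all tested genes under 500 coding bases, 56.4% rose and 4.96% fell. From 500 to under 1000 bases, 37.6% rose and 13.5% fell. The part of length was not tested. TIMMDC1, which helps to build the membrane arm of complex I, rose by 1.35 ± 0.32 (limma, adjusted p = 0.00936), while ACAD9, an acyl-CoA dehydrogenase that also assembles complex I, fell by 0.79 on the log2 scale (adjusted p = 0.00232). SDHAF4, which assists the SDHA flavoprotein, had 284, 327 and 270 in the mitoxantrone libraries, 70.8 and 129 in the pyrimethamine libraries and 75.4, 66.9 and 96.4 in the untreated libraries, a change of 1.88 ± 0.27 (adjusted p = 0.00128). It rose in the group in which SDHA fell.

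Of 13 regulators of respiratory genes, 1 rose and 8 fell with mitoxantrone, where 26.8% of all tested genes rose and 28.1% fell. The regulators had a median coding length of 1362 bases. Of all tested genes of 1000 to under 1500 coding bases, 25.2% rose and 26.3% fell. The part of length was not tested. NRF1 had 157, 168 and 153 in the mitoxantrone libraries, 194 and 178 in the pyrimethamine libraries and 373, 437 and 319 in the untreated libraries. It was lower in all 5 treated libraries than in any untreated one. The log2 fold change was -1.22 ± 0.18 with mitoxantrone (limma, adjusted p = 0.00138) and with pyrimethamine the fold was 0.499 (limma, adjusted p = 0.0365). The pyrimethamine call depends on the pooled spread. With the pyrimethamine and untreated libraries alone, 0 of all 15350 tested genes were called. The count was also 0 with a weight per library and with either replicate block.

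The coactivators PPARGC1A and PPARGC1B fell with mitoxantrone by 1.16 and 2.10 on the log2 scale, PPRC1 by 1.29, and the nuclear receptor ESRRA by 0.53. The mitochondrial RNA polymerase POLRMT fell by 1.12, YY1 by 0.69 and MYC by 0.75. TFB2M, a transcription factor of the mitochondrial genome, rose by 1.53 ± 0.37 (adjusted p = 0.00975). GABPA had 1733, 1866 and 1457 with mitoxantrone, 534 and 1080 with pyrimethamine and 1155, 1103 and 1157 in untreated cells, and its change of 0.56 ± 0.25 with mitoxantrone did not pass (adjusted p = 0.0887). Transcript levels of regulators say nothing of their activity.

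Among alternative isoforms and partners of the chain, 4 of 7 tested genes rose with mitoxantrone and 0 fell. Over all tested genes 26.8% rose and 28.1% fell. These isoforms and partners had a median coding length of 315 bases. Of all tested genes under 500 coding bases, 56.4% rose and 4.96% fell, so the share that rose was near that of short genes. ATP5IF1, the inhibitor of complex V, rose by 1.84 ± 0.42 (limma, adjusted p = 0.00819), HIGD1A, which associates with complex IV, by 1.58 ± 0.48 (0.0249), the supercomplex factor COX7A2L by 1.33 ± 0.47 (0.0399), and CYCS, cytochrome c, by 1.26 ± 0.42 (0.0325). Of the enzymes of the TCA cycle, which supply NADH and succinate, 2 of 18 rose and 7 fell. The shares over all tested genes were 26.8% higher and 28.1% lower. The TCA cycle genes had a median coding length of 1357.5 bases, against 417 for the tested subunit genes. Of all tested genes of 1000 to under 1500 coding bases, 25.2% rose and 26.3% fell. The part of length was not tested. Citrate synthase, CS, had 3013, 3131 and 3720 in the mitoxantrone libraries, 4212 and 4415 in the pyrimethamine libraries and 6739, 6805 and 7051 in the untreated libraries. All 5 treated libraries lay below the untreated ones, and the mitoxantrone change was -1.07 ± 0.16 on the log2 scale (limma, adjusted p = 0.00166). Pyruvate carboxylase, PC, fell by 2.07 (adjusted p = 0.00125).

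In coenzyme Q synthesis 3 of 13 genes rose and 2 fell with mitoxantrone. COQ10A and COQ10B, which bind coenzyme Q, rose by 1.97 ± 0.21 (limma, adjusted p = 0.000538) and 2.01 ± 0.32 (adjusted p = 0.00204). Of 22 tested genes of mitochondrial import and inner membrane structure 6 rose and 5 fell, and of 11 carriers and channels 2 rose and 1 fell. The shares over all tested genes, for these 3 lists alike, were 26.8% higher and 28.1% lower. SLC25A4, an ADP/ATP carrier, had 5627, 5737 and 4651 with mitoxantrone, 1070 and 2430 with pyrimethamine and 1067, 1062 and 1007 in untreated cells. Its change of 2.35 ± 0.28 with mitoxantrone (adjusted p = 0.000765) was above that of every subunit gene.

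**Figure D5:**
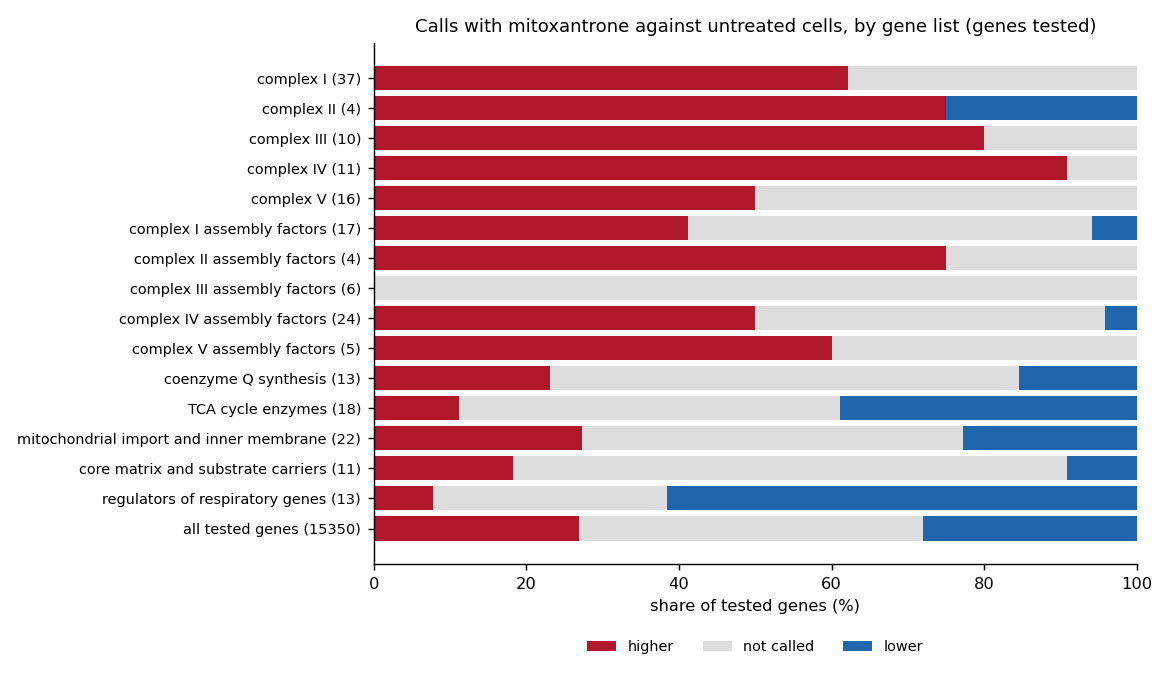
Share of tested genes called higher (red), not called (grey) and called lower (blue) with mitoxantrone against untreated cells, for the 5 complexes, lists of related genes and all tested genes, with the number tested in parentheses. Complex IV has the highest share of genes called higher (10 of 11), and regulators of respiratory genes the highest share called lower (8 of 13).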

How the data were processed

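RNA of 8 KYSE70 samples (mitoxantrone n = 3, pyrimethamine n = 2, untreated n = 3) was made into Illumina libraries, according to the labels. The submitters' processing notes name STAR 2.6.90c, featureCounts 1.5.1, cutadapt 1.12 and FastQC 0.11.5, and the build hg38. Not given in the sources used here are the gene annotation, the strand setting and how reads matching more than 1 gene were counted. The deposited table holds a normalised signal per gene, made by the authors by dividing counts by size factors, as the table's name states. Within 0.1 read, 100% of values were whole multiples of a step in each library, so reads were recovered for the count models.

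Genes with a mean of at least 10 (15350) were tested on log2(value + 1), which understates changes of low genes, with limma 3.58.1 in R 4.3.3 (eBayes with trend, group as the single term, 5 residual degrees of freedom), two-sided, with Benjamini-Hochberg adjustment over all tested genes and a threshold of 0.05. Alternatives were edgeR 4.0.16 and DESeq2 1.42.0 on reads, other scalings, filters and pseudocounts, a correction for length and GC content (90.7% of tested genes), replicate blocks and leaving out each library. The fits were tested on simulated data in which few genes changed and the pyrimethamine libraries differed only by random spread. That test does not cover the distance between these libraries in the real data. Positions and lengths are from GENCODE 29, matched by symbol for 20858 genes, by another symbol for 243 and not for 7180, and promoters from RefSeq (GRCh38.p14).

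The members and lists were chosen with earlier results of these data known. Named genes are, per complex and comparison with untreated cells, the 2 highest and 2 lowest log2 fold changes, all SDH genes, the subunit c genes, UQCRH and UQCRHL, members called against the majority, the regulators and isoforms, and from other lists the 3 with the smallest adjusted p with mitoxantrone. A few genes within this rule are counted but not named here.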

Additional observations from a re-analysis of the deposited data

How the results depend on the processing

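With mitoxantrone against untreated cells, 52 genes were called higher and 1 lower. The count of higher calls was 17 with quantile normalization, 25 with the length and GC correction and 34 with a replicate block by the number in the sample descriptions, where 23.3%, 21.0% and 20.9% of all tested genes were higher. The count of lower calls was 0 with upper-quartile scaling, no filter and either replicate block, where 14.8% to 25.9% of all tested genes were lower. It was 2 with cyclic loess normalization (27.7%) or total-read scaling (39.1%, added after seeing the data), and 5 with the length and GC correction (30.3%). The median log2 fold change of 1.40 became 0.94 with total-read scaling, 0.88 with quantile normalization, 0.92 with cyclic loess and 0.36 with the length and GC correction. Total-read scaling moved the median of all tested genes to -0.45, and relative to it the subunit median was 1.39. That relative value could hardly change, since this scaling shifts all genes of a library alike. Leaving out 1 library at a time gave 13 to 74 higher and 0 to 1 lower calls. The length and GC correction reversed ATP5MC3 to -0.69, NDUFS4 to -0.89 and NDUFS6 to -0.48, none of which was called in the test reported. It also left NDUFA5 called lower at -0.84, and 3 genes called higher in the test reported took negative values there that were not called, NDUFB4 at -0.26, ATP5PF at -0.28 and COX7C at -0.09. Over all 23 alternatives 57 of 78 genes kept a positive log2 fold change. NDUFB4, ATP5PF and COX7C were picked after their values were seen. The cause was not tested.

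With pyrimethamine, calls were 0 and 0, with 3 lower after the length and GC correction, and 0 to 62 higher and 0 to 75 lower when 1 library was left out. Between mitoxantrone and pyrimethamine, the 64 higher calls became 15 with quantile normalization (14.9% of all tested genes), 30 with the length and GC correction (11.6%), 0 with the 2 groups alone and 0 with either replicate block, and 0 to 76 when 1 library was left out. The lower calls were 3 with total-read scaling (43.1% of all tested genes). They were 1 with quantile normalization (16.1%), cyclic loess (19.0%), edgeR (27.4%) or DESeq2 (14.6%). In each fit without a mitoxantrone or untreated replicate they were 0, where 0% to 10.4% of all tested genes were lower.

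Same-numbered libraries did not deviate together: correlations of their deviations were -0.29 to 0.13 by the titles and -0.41 to 0.05 by the descriptions, which number the pyrimethamine libraries differently. With a replicate block by title, 46 genes were called higher and 0 lower with mitoxantrone, where 23.2% of all tested genes were higher and 24.1% lower. Of the 22 named members called with mitoxantrone, 8 kept the call under all 23 alternatives.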
